A study of Mus musculus with 6 samples.

Results

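The levels of 10 marker genes of fat cells were followed in 6 libraries of mouse gastrocnemius, a calf muscle of mostly fast fibres, by gene symbol among 57010 genes in all. They were 7 genes of white adipocytes (Adipoq, Cfd, Retn, Lep, Plin1, Cidec and Fabp4) and 3 tied to thermogenic, that is brown or beige, adipocytes (Cidea, Ucp1 and Adrb3). The question was whether libraries rich in fat cell transcripts carried a white or a thermogenic set of markers. The genes were chosen by their TPM in these radiotherapy and control libraries, whose values were already known, so that the comparison of the groups is a description of them and supports nothing further.

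The radiotherapy group (n = 3) was muscle of NSG mice, an immunodeficient strain, that bore on the left flank a xenograft of MDA-MB-231 with Rab27a knocked down. MDA-MB-231 is a human breast cancer line, and Rab27a is a small GTPase of vesicle secretion. At a tumour volume of about 800 mm3 the tumour alone was given a single X-ray dose of 10 Gy, and the gastrocnemius of the opposite side was taken after 3 days. The control group (n = 3) was the same muscle of mice with the same xenograft and no radiotherapy. Every mouse therefore carried the knockdown tumour, the lack of lymphocytes and the Matrigel used for implantation, and neither the age of the mice nor separate mice for the 3 samples of a group are given in the sources used here. P-values then measure only the spread between these samples.

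White adipocytes store triglyceride in 1 large droplet and secrete hormones, the adipokines. Brown and beige adipocytes hold many small droplets and many mitochondria, and burn fuel as heat through the uncoupling protein UCP1, which sits in the inner mitochondrial membrane and is switched on by adrenergic signals. Muscle holds fat cells between its bundles and around it, so that the transcripts of a piece of muscle can include theirs. In bulk samples such as these, fewer cells of a type and less RNA per cell cannot be told apart.

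Values were given as TPM, a share of all transcripts corrected for gene length, so that levels of different genes can be set side by side. TPM adds up to the same total in each library, and sequencing depth was unknown. The skeletal muscle markers were abundant in every library: the actin Acta1 lay between 6647 and 15355 TPM in the radiotherapy libraries and between 19091 and 23091 TPM in the control libraries. Of 8 muscle markers, 6 were lower in radiotherapy with groups that did not overlap, against 9.24% of all genes tested in either direction. The library radiotherapy 2 had the lowest sum over these 8 markers, and control 1 had the highest value of all 12 leukocyte markers. Radiotherapy 1, the library with the largest sum of white markers, was highest for 3.45% of the 11375 genes tested (those of at least 1 TPM in at least 3 libraries).

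Adipokine transcripts were most abundant in radiotherapy 1. Adipoq encodes adiponectin, an adipokine made almost wholly by adipocytes. It was at 88.7, 12.5 and 16.0 TPM in radiotherapy 1, 2 and 3, against 9.51, 23.6 and 1.98 TPM in control 1, 2 and 3. Radiotherapy 1 thus stood 3.75-fold above the next library, control 2, and control 3 stood far below all others, with 44.8-fold between highest and lowest. Cfd encodes adipsin, complement factor D, and was, with Fabp4, the most abundant member in every library. Its values were 1412, 183 and 207 TPM in the radiotherapy libraries, against 101, 250 and 24.4 TPM in the control libraries. The values of 2 radiotherapy libraries lay inside the control range, and radiotherapy 1 was 5.65-fold above control 2. Retn encodes resistin, an adipokine named for its effect on insulin action in mice. It had 56.0, 7.08 and 9.88 TPM in the radiotherapy libraries, against 6.87, 20.6 and 1.65 TPM in the control libraries, again with radiotherapy 1 highest and control 3 lowest. Lep encodes leptin, the hormone by which fat tissue reports its stores to the brain, and was close to absent. It had 0.07, 0 and 0.03 TPM in the radiotherapy libraries, against 0.03, 0.16 and 0 TPM in the control libraries, and its highest library was control 2 and not radiotherapy 1.

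**Figure D1:**
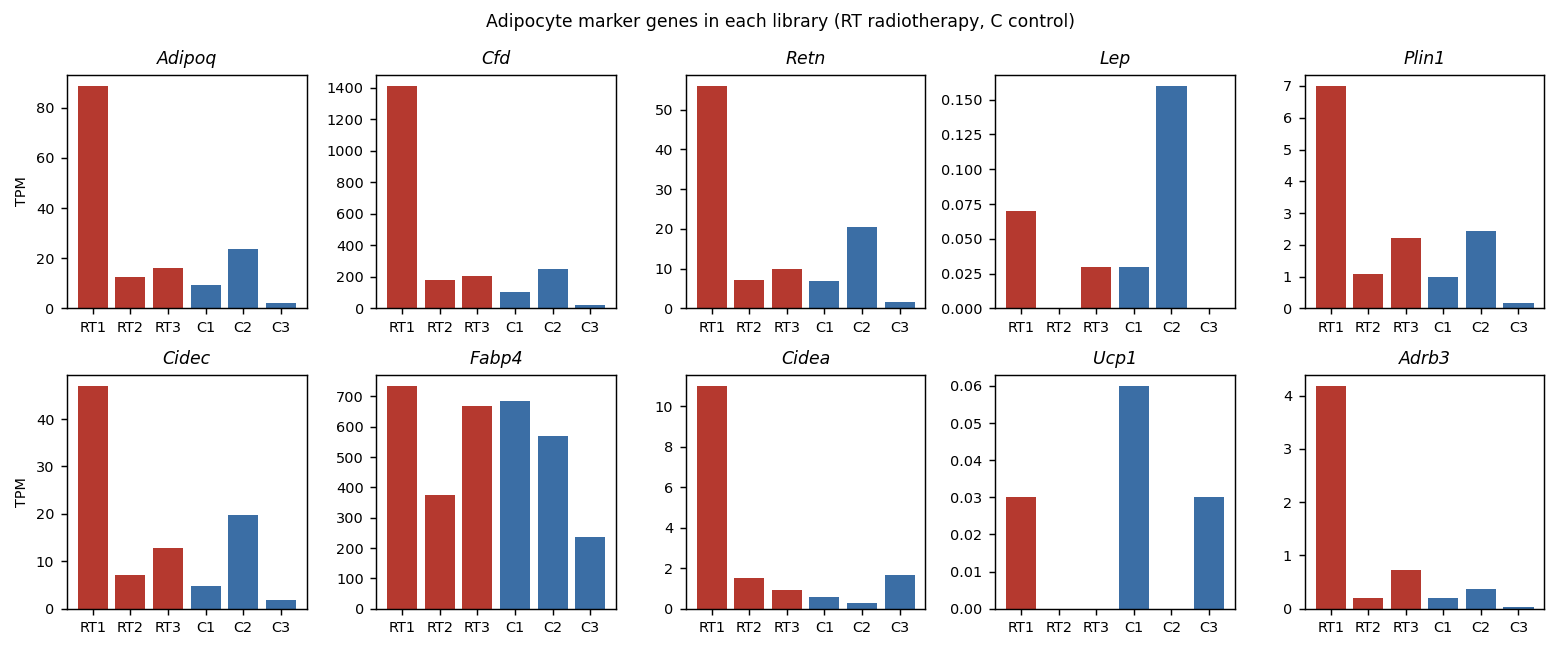
TPM of the 10 adipocyte markers in each library, 1 panel per gene with its own axis from 0 (RT1 to RT3, radiotherapy 1 to 3, red; C1 to C3, control 1 to 3, blue; bars are single libraries). RT1 is the tallest bar for 8 of the genes, Adipoq at 88.7 TPM and Cidea at 11.0 TPM among them, while Lep does not exceed 0.16 TPM and Ucp1 does not exceed 0.06 TPM.

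The sequences around the start sites of 4 of these genes are shown because they belong to the abundant adipokines Adipoq and Cfd and to the 2 members that were nearly absent, Lep and Ucp1. They are RefSeq promoters of GRCm38.p6, from 250 bases before to 50 bases after the start, on the gene's strand and 5′ to 3′. Adipoq lies at chr16:23146286-23146585 (plus strand), Cfd at chr10:79890603-79890902 (plus strand), Lep at chr6:29059971-29060270 (plus strand) and Ucp1 at chr8:83290098-83290397 (plus strand). Of the 10 members, 7 had a promoter among the entries kept, which had been filtered by chromosome. Fabp4, Cidea and Adrb3 had none among them. The shares over all promoters given below were counted without that filter. Capitals mark matches on either strand to any of 5 motifs.
Adipoq: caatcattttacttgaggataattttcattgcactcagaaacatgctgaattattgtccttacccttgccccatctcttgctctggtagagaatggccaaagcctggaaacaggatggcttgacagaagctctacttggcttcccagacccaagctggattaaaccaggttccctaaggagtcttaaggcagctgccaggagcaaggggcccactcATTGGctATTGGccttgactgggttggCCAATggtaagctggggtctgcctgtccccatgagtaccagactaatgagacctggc
Cfd: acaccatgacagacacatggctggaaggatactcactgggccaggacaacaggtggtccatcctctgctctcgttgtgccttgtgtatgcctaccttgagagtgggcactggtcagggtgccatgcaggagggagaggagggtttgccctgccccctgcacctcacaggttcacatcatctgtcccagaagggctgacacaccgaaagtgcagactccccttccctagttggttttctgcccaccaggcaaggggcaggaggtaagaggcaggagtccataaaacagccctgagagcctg
Lep: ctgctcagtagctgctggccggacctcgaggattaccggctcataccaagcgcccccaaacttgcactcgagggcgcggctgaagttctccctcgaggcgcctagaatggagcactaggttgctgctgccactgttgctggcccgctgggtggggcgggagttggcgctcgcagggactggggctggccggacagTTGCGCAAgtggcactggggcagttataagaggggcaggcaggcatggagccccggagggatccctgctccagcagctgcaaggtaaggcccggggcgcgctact
Ucp1: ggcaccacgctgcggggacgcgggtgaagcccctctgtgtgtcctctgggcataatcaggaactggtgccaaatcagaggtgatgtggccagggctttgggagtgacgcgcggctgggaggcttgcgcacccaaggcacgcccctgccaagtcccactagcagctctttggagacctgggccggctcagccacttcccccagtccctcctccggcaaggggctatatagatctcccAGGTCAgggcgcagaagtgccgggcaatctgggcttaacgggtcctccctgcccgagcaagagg

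The motifs searched were AGGTCANAGGTCA, the spaced direct repeat of which PPARγ with its partner RXR is known to bind variants, its single unit AGGTCA, the C/EBP palindrome TTGCGCAA, the box CCAAT and TATAAA. A direct repeat would also count as the single unit, and no other matches overlapped. Adipoq held CCAAT 3 times, starting 34, 27 and 7 bases before the start site, a motif found in 37.4% of the 32851 promoters of the table. Lep held the C/EBP palindrome 55 bases before its start, as 0.183% of all promoters did. Ucp1 held AGGTCA 1 time, starting 14 bases before its start, against 16.3% of all promoters with at least 1. In Cfd none of these letters was in the window, and neither TATAAA (13.6% of promoters) nor the direct repeat (0.0396%) was in any of the 4. A match is a description of letters and not of a bound site.

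The droplet genes Plin1 and Cidec followed Adipoq, Cfd and Retn, whereas the droplet coat genes Plin4 and Plin5 of the wider lists were lowest in radiotherapy 1 and Plin2 was highest in control 1. Plin1 encodes perilipin 1, which coats the droplet of adipocytes and gates lipolysis. It had 7.01, 1.09 and 2.23 TPM in the radiotherapy libraries, against 1.00, 2.43 and 0.18 TPM in the control libraries. Cidec, the gene of a protein that enlarges lipid droplets by passing lipid between them, had 47.0, 7.10 and 12.9 TPM in the radiotherapy libraries, against 4.90, 19.7 and 1.91 TPM in the control libraries. For both genes radiotherapy 1 was highest, control 2 next and control 3 lowest. Adipoq, Cfd, Retn, Plin1 and Cidec in fact ranked the 6 libraries in the same order, which runs from radiotherapy 1 through control 2, radiotherapy 3, radiotherapy 2 and control 1 to control 3. That order was shared by 12 of the 11375 tested genes (0.105%), these 5 members included. The other 7 were Cyp2e1, Mrap, Arxes2, Ccnt1, Tanc1, Bahcc1 and the predicted gene Gm12240. The order mixes the groups, since a control library stood second, above 2 of the radiotherapy libraries.

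Fabp4 encodes a fatty acid carrier of adipocytes that capillary endothelium and macrophages also make. It was high everywhere, at 734, 376 and 667 TPM in the radiotherapy libraries, against 684, 569 and 236 TPM in the control libraries. Its highest value was only 3.11-fold above its lowest, against 24.6-fold to 57.8-fold for the 5 genes above. Set against Adipoq in the same library, Fabp4 ran from 8.28 TPM per TPM of Adipoq in radiotherapy 1 to 119 in control 3. The 11 endothelial markers, which include Pecam1 and Cdh5, summed to 288, 268 and 371 TPM in the radiotherapy libraries, against 354, 298 and 248 TPM in the control libraries. Their sum in radiotherapy 1 lay within the control range. Their part in the Fabp4 values was not tested.

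The thermogenic markers did not move as a set. Ucp1, the gene of the uncoupling protein itself, was at 0.03, 0 and 0 TPM in the radiotherapy libraries, against 0.06, 0 and 0.03 TPM in the control libraries. In radiotherapy 1, the library richest in fat cell transcripts, Ucp1 was thus listed at 0.0338% of the Adipoq level. Cidea encodes a droplet protein related to that of Cidec and is a marker of brown fat in mice. It had 11.0, 1.51 and 0.93 TPM in the radiotherapy libraries, against 0.57, 0.28 and 1.68 TPM in the control libraries. Radiotherapy 1 was 6.54-fold above the next library, but that next library was control 3, the one with the least Adipoq. Control 2, second for the white markers, was lowest for Cidea. Adrb3 encodes the β3-adrenergic receptor, through which catecholamines act on both white and brown adipocytes of mice. It had 4.18, 0.21 and 0.73 TPM in the radiotherapy libraries, against 0.20, 0.38 and 0.04 TPM in the control libraries, and only radiotherapy 1 exceeded 1 TPM.

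Ratios within a library do not depend on how that library was scaled. The sum of Ucp1, Cidea and Adrb3 was 0.944, 0.815 and 0.670% of the sum of 6 white markers (all but Fabp4) in radiotherapy 1, 2 and 3, against 0.671, 0.208 and 5.80% in control 1, 2 and 3. The white sum itself was 1611, 211 and 248 TPM in the radiotherapy libraries, against 124, 317 and 30.2 TPM in the control libraries, and Cfd supplied 79.0 to 87.7% of it. The thermogenic sum was 15.2, 1.72 and 1.66 TPM in the radiotherapy libraries, against 0.83, 0.66 and 1.75 TPM in the control libraries. The white sum is the denominator of the share, so that a large one lowers it by construction. Without Cfd in the white sum the share was 7.65, 6.19 and 4.05% in the radiotherapy libraries, against 3.72, 0.993 and 30.6% in the control libraries, and on either denominator control 3 had the highest and control 2 the lowest share. Of the thermogenic sum in control 3, Cidea made up 96.0%.

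Relative to Adipoq, Cfd, Retn, Plin1 and Cidec kept narrow ranges, as the plot of ratios shows, while Fabp4 varied 14.4-fold and Lep was too low to follow. Cidec varied 1.87-fold and Plin1 1.76-fold over the 6 libraries, while Adipoq itself varied 44.8-fold. Cfd was at 15.9, 14.6 and 12.9 TPM per TPM of Adipoq in the radiotherapy libraries, against 10.7, 10.6 and 12.3 in the control libraries. Retn was at 0.632, 0.565 and 0.617 TPM per TPM of Adipoq in the radiotherapy libraries, against 0.722, 0.871 and 0.833 in the control libraries. The groups did not overlap for either gene, Cfd being higher and Retn lower relative to Adipoq in radiotherapy. These were 2 of the 6 tested members other than Adipoq, against 5% of all tested genes when each was divided by Adipoq. That share is not a like comparison, since Adipoq varied 44.8-fold and these 2 genes followed it. These ratios were given no test, and the contrast is the one with which the members were chosen. Cidea varied 71.6-fold relative to Adipoq, with 0.124, 0.121 and 0.0581 TPM per TPM of Adipoq in the radiotherapy libraries, against 0.0599, 0.0118 and 0.848 in the control libraries. Adrb3 varied 2.93-fold, with 0.0471, 0.0168 and 0.0456 in the radiotherapy libraries, against 0.0210, 0.0161 and 0.0202 in the control libraries.

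**Figure D2:**
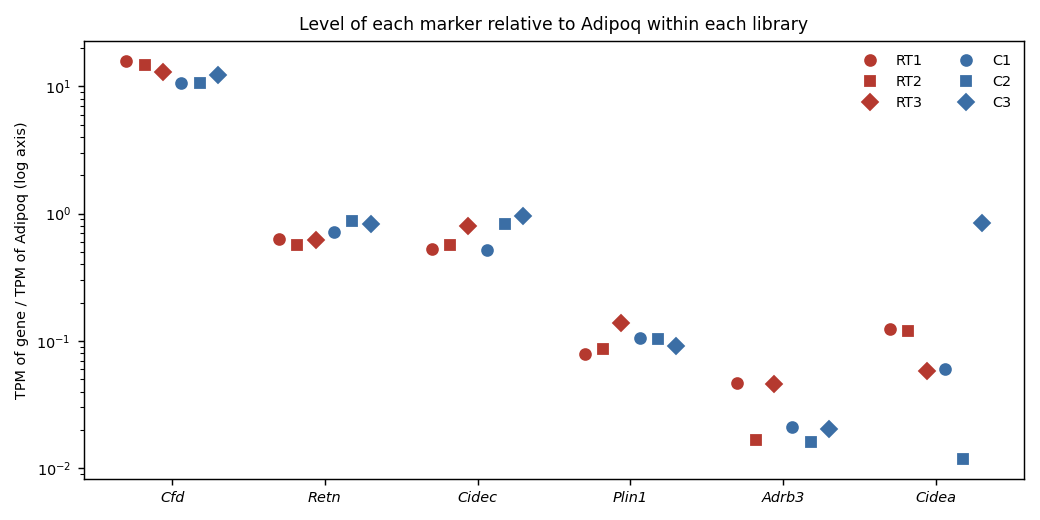
Level of 6 markers divided by that of Adipoq in the same library, on a log axis (RT1 to RT3, radiotherapy, red; C1 to C3, control, blue; points are single libraries). Cfd, Retn, Cidec and Plin1 each form a tight row, whereas Cidea spreads from 0.0118 in C2 to 0.848 in C3.

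Between the groups, no member passed the test. With limma across all genes, 0 of the 7 members that reached the filter had an adjusted p under 0.05, and 0% of all genes tested did. Before adjustment 1 of the 7, Cfd, had a p under 0.05, against 3.82% of all genes (435 of 11375). No tested member had groups that did not overlap, against 9.24% of all genes. Lep, Ucp1 and Adrb3 were under the filter. The member just inside it was Cidea, which reached 1 TPM in exactly 3 libraries, and the one nearest to it outside was Adrb3, which did so in 1. Adipoq averaged 39.1 ± 43.0 TPM in radiotherapy and 11.7 ± 11.0 TPM in control (SD, n = 3 each), a log2 fold change of 1.58 on the log2(TPM + 1) scale with a 95% interval from −0.33 to 3.49 (limma adjusted p = 0.977). Cfd averaged 601 ± 703 TPM in radiotherapy and 125 ± 115 TPM in control, a log2 fold change of 2.12 with an interval from 0.05 to 4.20 (limma adjusted p = 0.977). Cidea averaged 4.48 ± 5.65 TPM in radiotherapy and 0.843 ± 0.739 TPM in control, a log2 fold change of 1.14 with an interval from −0.24 to 2.53. In each of these genes the SD within radiotherapy exceeded its mean. The other log2 fold changes were 1.16 for Retn, 1.31 for Cidec, 0.91 for Plin1 and 0.33 for Fabp4, and the median of the 6 tested white markers was 1.23, against −0.11 for all genes tested.

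Most of these log2 fold changes shrank when either radiotherapy 1 or control 3 was left out. Without radiotherapy 1, the log2 fold change was 0.73 for Adipoq, 1.17 for Cfd, 0.29 for Retn, 0.37 for Plin1, 0.58 for Cidec, 0.15 for Fabp4 and 0.33 for Cidea, and every 95% interval included 0. The median of the 6 white markers was then 0.48. The difference of the white sums, radiotherapy minus control, was 533 TPM with all libraries and 72.5 TPM without radiotherapy 1. Control 3 stood at the low end of the white markers. Without control 3 the log2 fold change was 0.77 for Adipoq, 1.24 for Cfd, 0.39 for Retn, 0.53 for Plin1 and 0.67 for Cidec. That for Fabp4 turned to −0.13, whereas that for Cidea rose to 1.45. The difference of the white sums was 470 TPM without control 3.

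**Figure D3:**
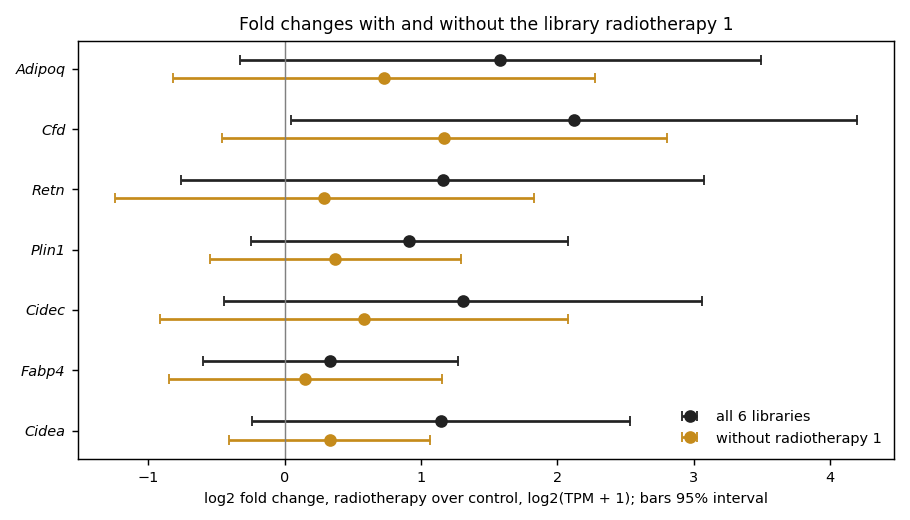
Log2 fold change (radiotherapy over control) of the 7 tested members from limma, with all 6 libraries (black) and without radiotherapy 1 (ochre), bars showing 95% intervals. Leaving that library out moves every point toward 0, Adipoq to 0.73, and only the interval of Cfd with all libraries lies above 0.

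The genes most like Adipoq were mostly other genes known from fat. Likeness was the root mean square difference between log2(TPM + 1) profiles centred on their means, over the 6 libraries, for 11372 genes that reached 1 TPM in at least 1 library; 1616 predicted, Rik and clone-named genes had been left out. The closest 8 were Retn (0.23), Cfd (0.30), Cidec (0.33), Cdo1 (0.34), Fcor (0.34), Trf (0.39), Cyp2e1 (0.41) and Adig (0.56). Cdo1, cysteine dioxygenase of taurine synthesis, had 30.2, 5.19 and 8.93 TPM in the radiotherapy libraries, against 3.09, 7.54 and 0.87 TPM in the control libraries. Cyp2e1, a cytochrome P450 that liver and fat express, had 121, 10.7 and 22.3 TPM in the radiotherapy libraries, against 7.83, 45.1 and 2.05 TPM in the control libraries. Trf, the iron carrier transferrin, had 91.2, 10.7 and 31.5 TPM in the radiotherapy libraries, against 16.0, 31.3 and 2.27 TPM in the control libraries. All of these were highest in radiotherapy 1 and lowest in control 3, which their choice by likeness to Adipoq nearly fixed in advance. At least a 2-fold excess of radiotherapy 1 over every other library was seen in 31 tested genes (0.273%). They held 6 of the 7 tested members, Fabp4 being the exception, and also Pparg and Cebpa, the transcription factors that drive adipocyte formation. Genes outside the fat lists were among them too, such as Postn, Anxa8, Ddc, Dusp10, Mmp11 and predicted Gm genes. The 2-fold limit was chosen after the values were seen.

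Other white adipocyte genes did not all follow Adipoq. Of 16, 10 were tested and 0 passed limma in either direction. Besides Cyp2e1, Adig (adipogenin) had 19.3, 2.13 and 3.18 TPM in the radiotherapy libraries, against 4.27, 4.25 and 0.61 TPM in the control libraries. The most abundant of the list, the carbonic anhydrase Car3, which muscle also makes, averaged 1128 ± 743 TPM in radiotherapy and 1961 ± 356 TPM in control. The droplet coat gene Plin4 averaged 77.0 ± 41.3 TPM in radiotherapy and 81.3 ± 15.1 TPM in control, and its lowest library was radiotherapy 1. Sncg, γ-synuclein, averaged 25.9 ± 1.01 TPM in radiotherapy and 17.6 ± 1.01 TPM in control (log2 fold change 0.53, limma adjusted p = 0.977). It was the only gene of the list whose groups did not overlap, against 9.24% of all genes tested.

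Other brown and beige genes were scarce in each library. Of 16, 2 passed the filter, 14 were above 0 somewhere, and Tnfrsf9 and Bmp8b were listed at 0 throughout. The tested pair was P2rx5, a purinergic receptor gene, at 7.48 ± 2.40 TPM in radiotherapy and 6.14 ± 1.65 TPM in control, and Tbx1, at 1.07 ± 0.715 TPM in radiotherapy and 3.26 ± 0.512 TPM in control. Neither passed (limma adjusted p = 0.979 and 0.977), although the groups of Tbx1 did not overlap. Radiotherapy 1 was highest for 8 of the 14, at low levels, and for 3.45% of all genes that passed the filter. That share does not cover genes under the filter, as most of the 14 were. Kcnk3, a potassium channel gene of brown fat, had 1.59, 0.34 and 0.34 TPM in the radiotherapy libraries, against 0.14, 0.25 and 0.14 TPM in the control libraries. Zic1, a transcription factor gene of classical brown fat, had 0.36, 0.17 and 0.22 TPM in the radiotherapy libraries, against 0.05, 0.02 and 0.05 TPM in the control libraries. The groups of Kcnk3 and Zic1, and of Elovl3 (0.57 to 0.76 TPM in radiotherapy and 0.25 to 0.56 TPM in control), did not overlap, and these 3 genes were under the filter and not tested. Without a filter, the groups of 6.71% of 26621 genes did not overlap. Dio2, whose enzyme activates thyroid hormone in brown fat, did not exceed 0.54 TPM, and Prdm16, a regulator of brown fat identity, did not exceed 0.49 TPM.

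Thermogenic genes that muscle fibres use too ranged from under the filter (Esrrg and Ppara) to among the more abundant members of the lists (Cox8b and Cox7a1). Of 13, 11 were tested, 1 had a positive and 10 a negative log2 fold change, and 0 passed limma. Their median was −0.23, and 67.9% of all genes tested had negative values. Groups did not overlap for 2 of the 11, Cox8b and Gpd2, both lower in radiotherapy, against 9.24% of all genes tested. Before adjustment 4 of the 11 had a limma p under 0.05, against 3.82% of all genes tested. The mitochondrial subunit gene Cox8b averaged 2251 ± 90.0 TPM in radiotherapy and 2899 ± 167 TPM in control, and Cox7a1 averaged 1120 ± 194 TPM in radiotherapy and 1224 ± 113 TPM in control. Pdk4, a brake on glucose oxidation, averaged 141 ± 73.5 TPM in radiotherapy and 300.4 ± 155 TPM in control. Radiotherapy 1 was highest for 0 of the 13, radiotherapy 3 for 4 and control 3 for 4. Among all genes tested these libraries were highest for 3.45, 35.9 and 25.1%.

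Regulators and enzymes of fat cells gave mixed profiles in muscle, where many have their own use. Of 10 tested adipogenic transcription factors 4 had positive and 6 negative log2 fold changes, with 0 past limma. Pparg, the master regulator of adipocytes, had 8.99, 2.17 and 3.89 TPM in the radiotherapy libraries, against 3.60, 3.53 and 0.99 TPM in the control libraries. Cebpa had 13.1, 3.67 and 3.63 TPM in the radiotherapy libraries, against 3.76, 3.54 and 1.90 TPM in the control libraries. Both were highest in radiotherapy 1, whereas the more abundant Cebpb, Cebpd, Klf15 and Rxra were highest in control 3. Among 18 tested genes of triglyceride storage and lipolysis the median was 0.12, with 11 positive, 7 negative and 0 past limma. The most abundant, the glucose transporter gene Slc2a4, averaged 148 ± 16.1 TPM in radiotherapy and 190.0 ± 16.7 TPM in control, and its groups, like those of the glycerol phosphate dehydrogenase gene Gpd1 (60.9 ± 41.8 TPM in radiotherapy and 120.0 ± 11.0 TPM in control), did not overlap. Pnpla2, the lipase that starts lipolysis, averaged 153 ± 33.2 TPM in radiotherapy and 106 ± 33.5 TPM in control. The lipogenic enzymes had 2 positive and 3 negative values of 5 tested and 0 calls. The most abundant, the malic enzyme gene Me1, averaged 49.0 ± 19.5 TPM in radiotherapy and 76.0 ± 10.6 TPM in control, with groups that did not overlap. Fasn, fatty acid synthase, had 20.3, 3.01 and 6.81 TPM in the radiotherapy libraries, against 6.31, 10.7 and 2.70 TPM in the control libraries. Scd1, a fatty acid desaturase gene, averaged 2.87 ± 0.890 TPM in radiotherapy and 9.70 ± 9.74 TPM in control. The 5 tested receptors of adipokines, insulin and catecholamines had negative values, from −0.97 to −0.01, with 0 calls, against 67.9% of all genes tested with negative values. The adiponectin receptor Adipor1 averaged 58.9 ± 16.7 TPM in radiotherapy and 90.9 ± 17.5 TPM in control (log2 fold change −0.64, limma adjusted p = 0.977). Its groups, like those of Cdh13, did not overlap. In the 4 lists of this paragraph, in order, groups did not overlap for 0 of 10, 2 of 18, 1 of 5 and 2 of 5 tested genes. The share over all genes tested was 9.24%.

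**Figure D4:**
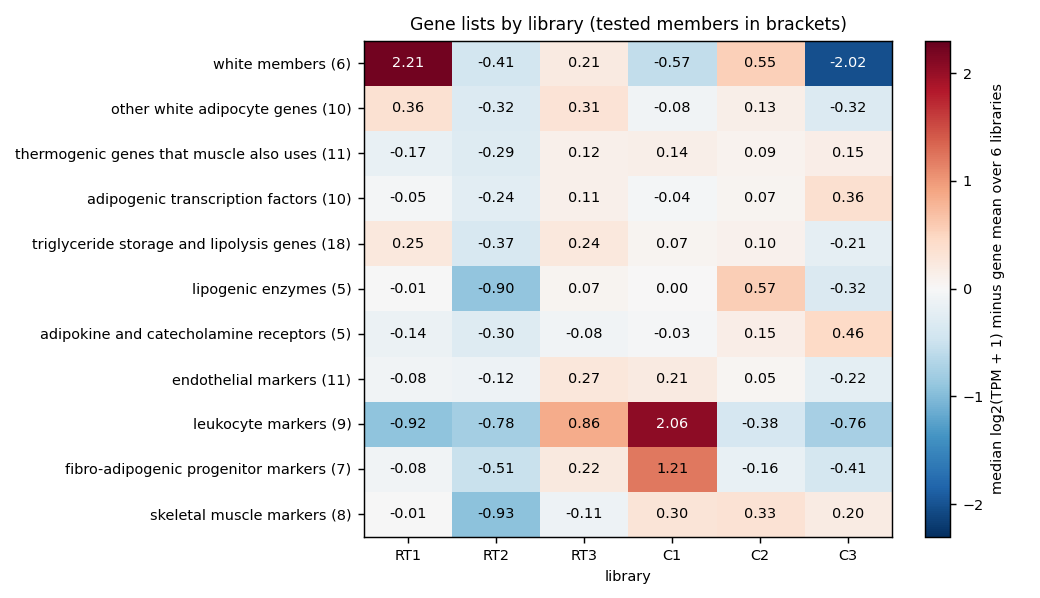
Median over the tested genes of each list of log2(TPM + 1) minus the gene's mean over the 6 libraries (columns RT1 to RT3, radiotherapy, and C1 to C3, control; number of genes in brackets). White members range from 2.21 in RT1 to −2.02 in C3, endothelial markers stay between −0.22 and 0.27, and leukocyte markers peak at 2.06 in C1.

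Markers of other cells were read in the same libraries. The 12 leukocyte markers summed to 169, 188 and 804 TPM in the radiotherapy libraries, against 1879, 310 and 291 TPM in the control libraries, so that radiotherapy 1 had the lowest sum. The 9 markers of fibro-adipogenic progenitors, the stromal cells that can form fat in muscle, summed to 479, 390 and 542 TPM in the radiotherapy libraries, against 864, 383 and 373 TPM in the control libraries. The sum in radiotherapy 1 was below that of control 1 and above those of control 2 and control 3. The 7 skin keratinocyte markers summed to 5.00, 4.63 and 3.27 TPM in the radiotherapy libraries, against 5.16, 4.63 and 3.81 TPM in the control libraries, mostly as Krt10, which was highest in control 1. Of the basal keratins, Krt5 and Krt14 were listed at 0 in all libraries but radiotherapy 1, where they had 0.21 and 0.43 TPM. Of the 7 markers, 2 were highest in radiotherapy 1, 2 in radiotherapy 2, 1 in radiotherapy 3 and 2 in control 1. The part of these other cells in the fat marker values was not tested.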

How the data were processed

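RNA sequencing of 6 gastrocnemius samples (3 radiotherapy, 3 control) was used, with groups taken from the labels. The authors deposited 1 table of TPM values, 1 column per sample; 0 other value columns were present. HISAT2, StringTie, RSEM and build mm9 are named per the submitters' processing notes, with no role; which annotation and strandedness were used is not given in the sources used here. Depth was unknown, so no counting interval is given. No pair of libraries was alike in more than 3.35% of nonzero values.

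Values were transformed to log2(TPM + 1), which understates changes of low genes. Genes of at least 1 TPM in at least 3 samples (11375) were tested with limma 3.58.1 in R 4.3.3 (trend, group as the only term, two-sided), with Benjamini-Hochberg adjustment over all of them and a threshold of 0.05. The script was tested on simulated data. Sums and ratios of markers were given no test. The members and lists were chosen with earlier results of these data known. Named were all members, genes most like Adipoq, and up to 4 genes of highest mean per list; further genes, such as Pparg, Cebpa, Gpd1, Plin2, Plin5, Elovl3, Kcnk3, Zic1, Dio2, Prdm16, Mrap and Arxes2, and the 2-fold limit for radiotherapy 1, were chosen after their values were seen. Promoters came from RefSeq (GRCm38.p6); no gene coordinates in mm9 were used. Alternatives were another pseudocount, filter and scaling, the replicate number as a block, and each sample left out. Python 3.11.15 with matplotlib 3.10.9 drew the figures.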

Additional observations from a re-analysis of the deposited data

How the results depend on the processing

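No member and no list gene passed limma under any of the 12 alternatives run (pseudocount 0.1, no filter, 5 TPM filter, median-of-ratios scaling, quantile normalization, replicate block, each of 6 libraries left out). Over all genes the count was 0 to 1 when a library was left out, the 1 being Gm55635 without control 1 and Gm24497 without radiotherapy 1; the cause was not tested. Of 82 member fold changes under these alternatives 81 kept their direction, and that of Fabp4 reversed to −0.13 without control 3. Leaving out 1 library gave log2 fold changes from 0.73 to 2.29 for Adipoq, from 1.17 to 2.89 for Cfd, from −0.13 to 0.63 for Fabp4 and from 0.33 to 1.65 for Cidea. The difference of white sums ran from 72.5 TPM (without radiotherapy 1) to 772 TPM (without radiotherapy 2), and that of thermogenic sums from 0.61 TPM (without radiotherapy 1) to 7.38 TPM (without radiotherapy 3). It was 57.7 TPM for the white sum without Cfd. Ucp1 over Adipoq alone, in place of the ratio of sums, gave 0.0338, 0 and 0% in radiotherapy 1, 2 and 3, and 0.631, 0 and 1.52% in control 1, 2 and 3, an alternative that changes both the numerator and the denominator. With the white sum without Cfd, an alternative chosen after seeing the data, the thermogenic share was 7.65, 6.19 and 4.05% in radiotherapy 1, 2 and 3, and 3.72, 0.993 and 30.6% in control 1, 2 and 3, since Cfd is most of the denominator. The median of all genes moved from −0.11 to −0.01 with quantile normalization. Same-numbered samples share only a number: their deviations correlated at −0.06, 0.02 and −0.11, no sample matched its own number best, and the replicate block left 0 genes past the threshold, with 403 at an unadjusted p under 0.05 against 435. Values of a few hundredths of a TPM, as for Ucp1 and Lep, cannot be given a detection limit, since depth is unknown.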
